A study of Caenorhabditis elegans with 2 samples.

Results

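Coding exon regions outside promoters were the deposited regions whose summit, the base of highest signal, lay in annotated coding sequence and not from 1000 bp upstream to 200 bp downstream of the start of any protein-coding transcript. They numbered 8726 of the 30000 regions in the pooled list, or 29.1%. The list came from chromatin immunoprecipitation with sequencing (ChIP-seq) for ELT-3 in Caenorhabditis elegans larvae of the second stage (L2), taken whole and with both sexes together. The strain was OP75, with the mutation unc-119(ed3) III and the transgene wgIs75, from which ELT-3 is made with GFP and FLAG joined to its C-terminus. The labels define 1 group of 2 biological replicates, so both replicates share every allele and there is no untagged or untreated group. Regions were ranked by the authors' signal value, a score relative to 1 control alignment whose scale is not stated. The 500 highest coding exon regions were compared with the 4034 whose signal value was below the median of the whole list.

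ELT-3 is a GATA factor of the hypodermis, the epithelium that builds the worm's cuticle. GATA factors bind short DNA sites around the letters GATA, and sites that act on transcription are usually sought in promoters, introns and intergenic DNA. Coding exons differ from these in base composition, in the repeats that repetitive proteins carry and in the near-identical copies that gene families share. Signal in coding exons is therefore often examined for such properties before it is read as binding.

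The stretches that follow are 151 bases centred on the summit, from the RefSeq genome WBcel235 (ce11), read 5′ to 3′ on the coding strand of the host gene. The first 3 show high members that held the GATA site TGATAA, or TTATCA where it lay on the other strand, in capitals. They were F43C11.7 at chrII:2336919-2337069 (plus strand), the mitochondrial aconitase gene aco-2 at chrIII:7975629-7975779 (plus strand) and the glucuronosyltransferase gene ugt-15 at chrV:12828216-12828366 (plus strand).
F43C11.7: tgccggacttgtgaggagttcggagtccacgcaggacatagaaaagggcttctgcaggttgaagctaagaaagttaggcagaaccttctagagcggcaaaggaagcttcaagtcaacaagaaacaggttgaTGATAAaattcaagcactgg
aco-2: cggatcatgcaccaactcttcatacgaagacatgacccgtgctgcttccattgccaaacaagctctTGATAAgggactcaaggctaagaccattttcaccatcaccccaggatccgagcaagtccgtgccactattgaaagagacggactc
ugt-15: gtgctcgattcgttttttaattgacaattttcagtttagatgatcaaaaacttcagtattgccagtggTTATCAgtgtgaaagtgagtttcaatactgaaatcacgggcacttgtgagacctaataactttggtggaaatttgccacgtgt

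The next 2 show other members of the 15 highest with no TGATAA within 100 bp of the summit, so nothing is in capitals. They lay in ttn-1, the gene of a titin-like muscle protein, at chrV:6146575-6146725 (minus strand), and in let-805, the gene of the attachment protein myotactin, at chrIII:2668849-2668999 (plus strand).
ttn-1: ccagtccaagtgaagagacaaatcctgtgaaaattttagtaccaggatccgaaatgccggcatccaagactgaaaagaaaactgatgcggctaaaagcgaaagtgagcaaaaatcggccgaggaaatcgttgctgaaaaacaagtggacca
let-805: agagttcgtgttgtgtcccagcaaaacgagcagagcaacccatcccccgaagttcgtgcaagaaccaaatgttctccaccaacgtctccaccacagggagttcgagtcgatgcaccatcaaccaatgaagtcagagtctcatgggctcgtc

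The last 3 show repeats inside a region, with bases in capitals where they belong to a 12-base word that the whole region held 2 or more times. They lay in the cuticle collagen gene col-165 at chrX:4354067-4354217 (plus strand), in emb-9, the gene of a basement membrane collagen, at chrIII:9339550-9339700 (minus strand), and in the germ granule gene meg-1 at chrX:13928918-13929068 (minus strand).
col-165: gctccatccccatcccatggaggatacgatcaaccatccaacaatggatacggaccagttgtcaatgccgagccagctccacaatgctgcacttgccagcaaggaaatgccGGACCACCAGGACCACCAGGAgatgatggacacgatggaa
emb-9: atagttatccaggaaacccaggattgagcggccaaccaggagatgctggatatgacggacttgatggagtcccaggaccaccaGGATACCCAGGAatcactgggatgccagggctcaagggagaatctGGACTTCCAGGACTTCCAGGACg
meg-1: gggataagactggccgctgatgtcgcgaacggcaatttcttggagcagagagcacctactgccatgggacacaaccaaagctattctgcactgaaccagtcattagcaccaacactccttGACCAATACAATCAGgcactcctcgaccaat

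The depth of the libraries is unknown, since the deposited lists give no read totals. Each of the 3 lists held 30000 regions of fixed width, 350 bp in the pooled list, 356 bp in replicate 1 and 370 bp in replicate 2, and all 3 were called against the same control alignment. By the same rule, replicate 1's own list held 8485 coding exon regions and replicate 2's held 8232. The p-values here take regions as units, so they say nothing of how far the replicates spread, and regions in 1 gene are not independent. The 95% Wilson intervals cover the counting of regions only.

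Most high coding exon regions were not high in both replicates. Each member was given the rank of the nearest summit within 150 bp in each replicate's list. Among the 500 highest, 452 (90.4%) had such a summit in replicate 1, 450 (90%) had one in replicate 2, and 402 (80.4%) had one in both. Below the median these shares were 44.8%, 41.4% and 6.87%. The pooled list was made from both replicates, so this difference is a description with no test. The nearest summit was in the 1000 highest of replicate 1 for 144 of the 500 and in the 1000 highest of replicate 2 for 131. It was in the 1000 highest of both for 20, or 4% (interval 2.60 to 6.10%). All 20 members of this kind were among the 500 highest, and none of the 4034 below the median was of this kind. Since the pooled list was made from both replicates, this split too is a description with no test. Over all 8726 members the share of this kind was 0.229%, beside a background of 66 of 30000 regions in the pooled list, or 0.22%. Coding exon regions thus made up 30.3% of the regions high in both replicates, near their 29.1% of the list.

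**Figure D1:**
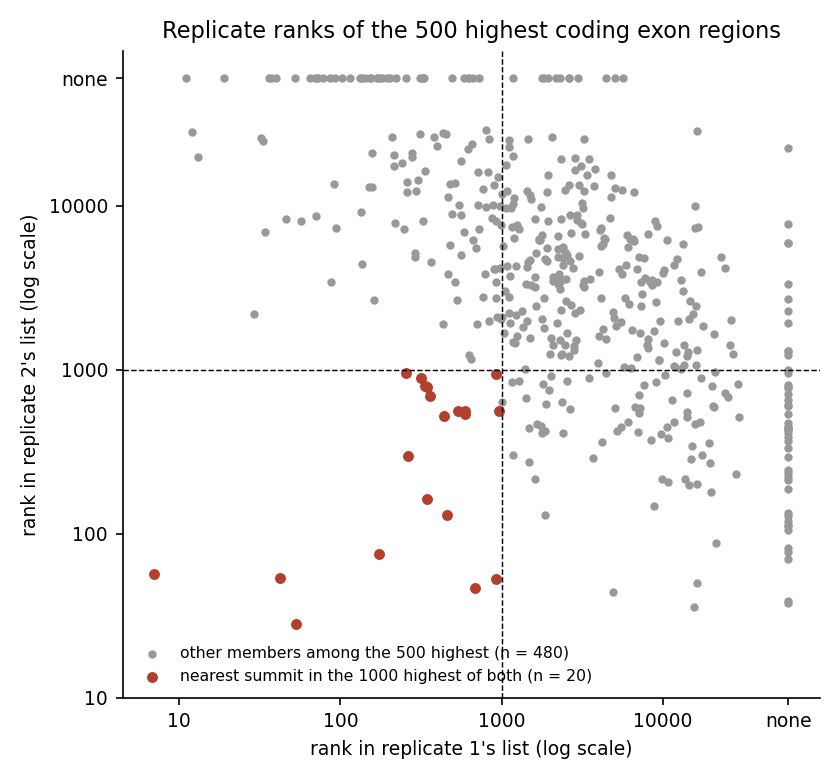
Rank in replicate 1's list (x axis, log scale) against rank in replicate 2's list (y axis, log scale) of the nearest summit within 150 bp, for the 500 highest coding exon regions. Each point is a region, "none" marks a replicate with no summit within 150 bp, and dashed lines mark rank 1000. The 20 red points are in the 1000 highest of both, and the grey points are in the 1000 highest of 1 replicate or of neither.

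The authors' stricter calls held few regions of any kind. The authors' list thresholded on irreproducible discovery rate (IDR) held 33 regions, 0.11% of the pooled list. Of these, 4 were coding exon members, 12.1% of the 33 and 0.0458% of the members (interval 0.0178 to 0.118%). The authors' q-value was under 0.05 for 15 pooled regions (0.05%) and for 1 member (0.0115%, interval 0.00202 to 0.0649%). Both intervals included the share over the pooled list. Between the replicates' own lists, 29 of replicate 1's 500 highest coding exon regions (5.8%, interval 4.07 to 8.21%) had a summit within 150 bp among the 500 highest of replicate 2. Over replicate 1's 8485 coding exon regions, 21.7% had a summit within 150 bp among all coding exon regions of replicate 2. That share searched 8232 regions of replicate 2 and the 5.8% only 500, so the 2 shares are not comparable.

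The highest member lay in exon 9 of 14 coding exons of sop-3, which encodes a subunit of the Mediator complex, on chromosome I from 2767278 to 2767627 (ce11). Its signal value was 53.0 in the pooled list, 24.7 in replicate 1 and 27.6 in replicate 2, and its ranks in the replicates were 53 and 28. It had the only q-value under 0.05 among the members, 0.0345. The second member lay in coding exon 2 of 4 of clec-89, a C-type lectin gene, on chromosome I from 4072529 to 4072878, with a signal value of 50.8 and replicate values of 25.3 and 25.5. Both genes stood high in each replicate.

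The third member lay in coding exon 6 of 20 of lrp-2, which encodes a giant receptor of the LDL receptor family, on chromosome I from 3950689 to 3951038. Its pooled signal value was 50.3, with 27.0009 in replicate 1 at rank 29 and 15.1 in replicate 2 at rank 2173. The fourth lay in coding exon 2 of 6 of meg-1, which encodes a protein of germ granules, on chromosome X from 13928818 to 13929167. Its pooled signal value was 47.2, with 35.3 in replicate 1 (rank 7) and 25.4 in replicate 2 (rank 57). These 4 were the coding exon members of the IDR list.

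The meg-1 region stands near elt-3 itself, the gene whose tagged copy the strain carries. Within 20000 bp of elt-3 lay 11 members, of which 2 were among the 500 highest, both in meg-1. The other, in coding exon 5, had a pooled signal value of 36.04 and a nearby summit in replicate 1 alone. The part of the transgene in these values was not tested. Leaving out all 11 changed no call.

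The next members were in genes of varied function. The nas-30 region, in an astacin metalloprotease gene, had a signal value of 43.4 and ranked 686 and 47 in the replicates. The ZK973.9 region had a value of 43.02 and ranks of 920 and 53. The pghm-1 region, in a gene of neuropeptide amidation, had a value of 41.8 and ranks of 346 and 162. These 3 were in the 1000 highest of both replicates.

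The F43H9.4 region had a signal value of 41.4 in the pooled list and 24.3 in replicate 1 (rank 65), with no summit within 150 bp in replicate 2. The F43C11.7 region, printed above with its GATA site, had a value of 41.1 and ranks of 647 and 1169. In ain-2, a gene of the microRNA silencing complex, the value was 40.8 and the ranks were 358 and 691. In zfh-2, a zinc finger homeobox gene, the value was 40.5 and the ranks were 174 and 75.

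The last of the 15 highest lay in genes of structural proteins. The signal value was 39.97 in ttn-1, at ranks 535 and 562, and 39.7 in let-805, at ranks 343 and 787. The region in unc-89, the gene of an obscurin-like protein of the muscle M-line, had a value of 39.7 and ranks of 257 and 951. The region in col-56, a cuticle collagen gene, had a value of 39.4 and ranks of 87 and 3450. Of the 15 highest, 15 were in the 1000 highest of replicate 1 and 11 in those of both. The signal values at the boundary of the 500 lay close together, with 26.62 in K06A9.1 just inside and 26.61 in R166.3 just outside.

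High coding exon regions were richer in G and C. The median GC content of the deposited region was 42.9% in the 500 highest (quartiles 39.1 and 47.2%) and 40.3% below the median (quartiles 36.9 and 44%). GC content was above the members' median of 40.6% in 322 of 500 (64.4%, interval 60.1 to 68.5%) against 1852 of 4034 (45.9%, interval 44.4 to 47.5%). The odds ratio was 2.13 (two-sided Fisher's exact test, Benjamini-Hochberg adjusted over the 10 results tested, p = 6.33e-14). By rank, the median was 44.9% in the 100 highest and 40% beyond rank 6000. In the replicates' own lists the odds ratios were 2.21 and 2.30, and both passed the test.

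A higher GC content was also found in the high regions of other kinds of sequence. Among the 500 highest promoter regions the median exceeded that below the list's median by 3.71 percentage points, among intron or UTR regions by 2.86 and among regions outside coding genes by 2.57, against 2.57 for coding exons. The odds ratio for GC content above each class's own median was 2.57 in promoters, 2.52 in introns or UTRs and 2.20 outside coding genes. None of these differed from the coding exons' odds ratio past the threshold (Zelen's exact test of equal odds ratios, adjusted p = 0.351, 0.351 and 0.833). This comparison between classes was added after the data had been examined.

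**Figure D2:**
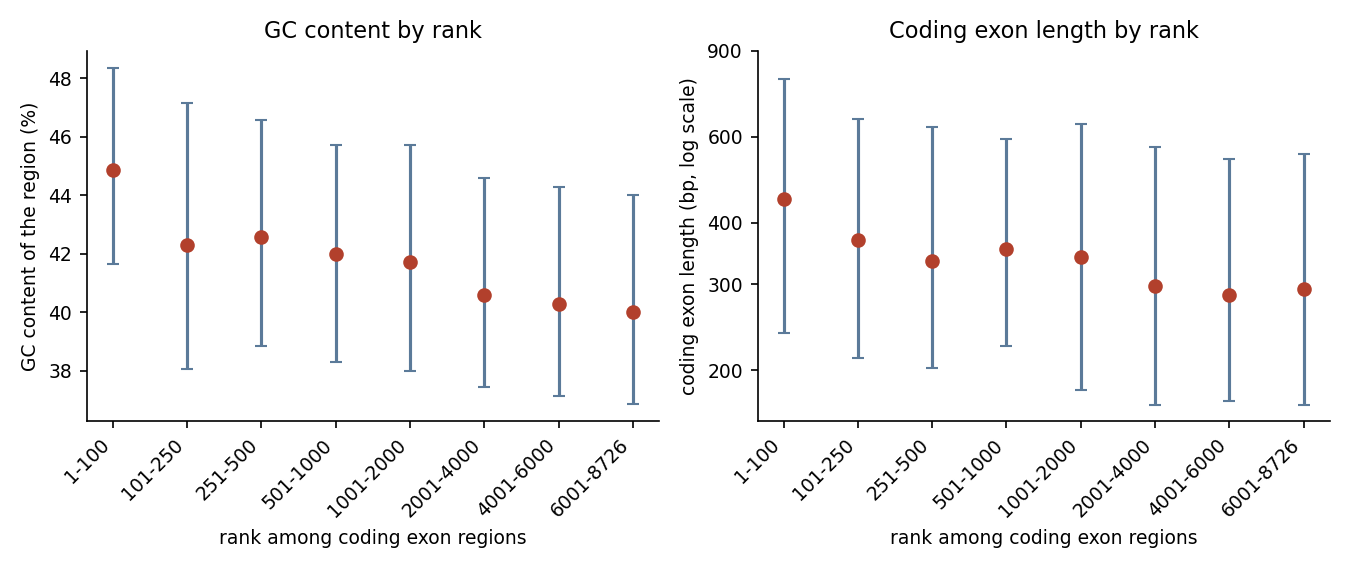
GC content of the region in percent (left) and length of the coding exon that holds the summit in bp on a log scale (right), by rank among the 8726 coding exon regions. Points are medians and bars span the quartiles of the regions in each rank range. The median GC content is 44.9% in the 100 highest and 40% in the lowest range, and the median exon length is 447.5 bp and 292.5 bp.

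High regions also lay in longer coding exons. The exon that held the summit had a median length of 360 bp in the 500 highest (quartiles 206.75 and 664 bp) and 292 bp below the median (quartiles 172 and 548 bp). It was longer than the members' median of 305 bp in 296 of 500 (59.2%) against 47.9%, an odds ratio of 1.58 (Fisher's exact test, adjusted p = 6.61e-06). The whole 350 bp region lay inside 1 coding exon for 146 of the 500 (29.2%) against 795 of 4034 (19.7%), an odds ratio of 1.68 (Fisher's exact test, adjusted p = 6.61e-06). In the replicates' own lists the odds ratio for exon length was 1.40 in replicate 1 and 1.91 in replicate 2, and that for lying inside an exon 1.89 and 1.65, all past the threshold.

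Regions inside 1 exon had a median GC content of 46.9% in the 500 highest and 44% below the median, and regions that reached outside the exon had 41.7% and 39.1%. Counting only the coding bases of each region, the odds ratio for GC content was 1.73 (Fisher's exact test, adjusted p = 1.09e-07). Among members at or below the median GC content the odds ratio for exon length was 1.17 and did not pass (exact test, adjusted p = 0.521), and among those above it 1.36 (adjusted p = 0.0438). These 3 values come from alternatives added after the data had been examined.

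In the pooled list the position of the exon within the gene did not differ past the threshold. The summit was in the first coding exon for 3.6% of the 500 highest and 3.45% of those below the median (odds ratio 1.05, Fisher's exact test, adjusted p = 0.796). It was in the last coding exon for 13.4% and 14.6% (odds ratio 0.907, exact test, adjusted p = 0.604). In replicate 2's own list the last coding exon held 11.4% against 15.3%, an odds ratio of 0.715 that passed (exact test, adjusted p = 0.0381), and in replicate 1's the odds ratio was 0.869 and did not pass. The window that defined the members removes most first exons, so these shares describe only what lies beyond it. The median number of coding exons of the host gene was 8 in both groups, and the summit lay at a median of 54.8% and 53.7% of the coding sequence.

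The GATA site was not more frequent in the high regions. With both strands searched up to 100 bp from the summit, TGATAA was in 66 of the 500 highest (13.2%, interval 10.5 to 16.4%) and in 674 of 4034 below the median (16.7%, interval 15.6 to 17.9%). The odds ratio was 0.758, and the difference did not pass the threshold (Fisher's exact test, adjusted p = 0.0667, unadjusted 0.0467). Among all members 15.9% had the site, and among all 30000 pooled regions 16.4%. The search used these 6 letters and their reverse complement, and a match is not evidence of binding. With A or T allowed before GATA and A or G after it, which takes in TGATAA, the shares were 28% and 34.5%, an odds ratio of 0.737 that passed the threshold (Fisher's exact test, adjusted p = 0.00604).

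Per 1000 coding bases within 100 bp of the summit there were 0.659 sites in the 500 highest and 0.881 below the median. Per 1000 other bases of the same windows there were 0.853 and 1.15. Of the 66 high regions with a site, 61 had a nearest summit in replicate 1 and 59 in replicate 2. In the 1000 highest of both were 2, those in zfh-2 and copa-1, which encodes a subunit of the coatomer. For all 500 highest these counts were 452 (90.4%), 450 (90%) and 20 (4%). The aco-2 region had a signal value of 38.1 and the ugt-15 region 34.6, with replicate ranks of 1407 and 1007 for ugt-15.

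In the pooled list the GATA odds ratio was above 1 in the other classes of region, but its interval included 1 for introns or UTRs. It was 1.38 in promoters (95% interval of the odds ratio 1.10 to 1.74). In introns or UTRs it was 1.19 (0.930 to 1.52) and outside coding genes 1.30 (1.03 to 1.64). TGATAA was in 22.2% of the 500 highest promoter regions against 17.1% of those below the median, in 17.8% against 15.4% of intron or UTR regions, and in 21.2% against 17.2% of regions outside coding genes. The odds ratios were 1.83, 1.57 and 1.71 times that of coding exons, and each difference passed (Zelen's exact test of equal odds ratios, adjusted p = 0.00244, 0.0164 and 0.00600). In replicate 2's own list all 3 differences passed (same exact test, adjusted p = 0.0263, 0.00185 and 0.00185). In replicate 1's own list none did (same exact test, adjusted p = 0.849 for each), and the ratios there were 1.21, 0.958 and 1.11. The odds ratios themselves in replicate 1 were 1.06 in promoters, 0.835 in introns or UTRs and 0.967 outside coding genes. Those in replicate 2 were 1.12 in promoters (95% interval 0.891 to 1.40), 1.34 in introns or UTRs and 1.36 outside coding genes. The comparison was added after the data had been examined, as 1 of 18 differences over 2 properties, 3 lists and 3 classes, each adjusted over its 3 classes only. High coding exon regions therefore differed from other classes in the pooled list and in replicate 2, and not detectably in replicate 1.

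**Figure D3:**
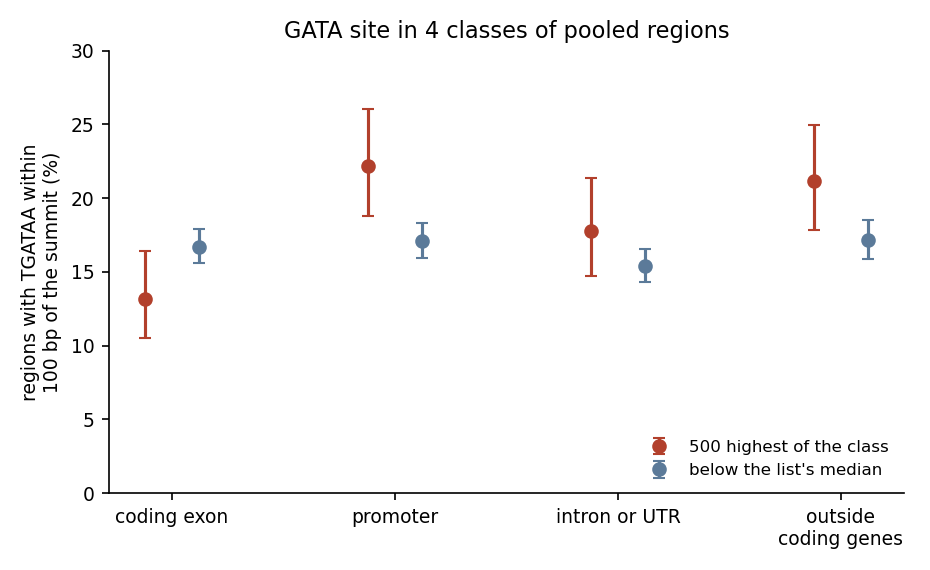
Share of pooled regions with TGATAA within 100 bp of the summit, in percent, in the 500 highest of each class and in those of the class below the list's median. Points are shares and bars 95% Wilson intervals. The high share is 13.2% in coding exons and 17.8 to 22.2% in the other 3 classes, all from the pooled list.

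Coding exons held a larger part of the list's upper end. Of the 1000 highest pooled regions 320 (32%, interval 29.2 to 34.96%) were coding exon members, against 4034 of 15000 below the median (26.9%), an odds ratio of 1.28 (Fisher's exact test, adjusted p = 0.00139). In the replicates' own lists the odds ratios were 1.45 and 1.35. For the 500 highest regions of the pooled list the odds ratio was 1.14 and did not pass (exact test, adjusted p = 0.233), and for promoter windows from 2000 bp upstream to 500 bp downstream it was 1.16 (adjusted p = 0.124). Coding bases outside promoter windows were 18.96% of the genome, so members were more frequent than their bases, at 0.459 per kb.

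Chromosome I held 161 of the 500 highest (32.2%, interval 28.3 to 36.4%) and 700 of 4034 below the median (17.4%, interval 16.2 to 18.6%). Its first 5 Mb alone held 109 (21.8%) against 5.92%. In the replicates' own lists chromosome I held 27.6% and 31.2% of the 500 highest coding exon regions. Chromosome IV held 8% of the 500 highest against 13.6% in the pooled list, but 11.4% and 12.4% of the 500 highest in the replicates' own lists. The shares of chromosomes I and IV were given no test. Chromosome X held 15.4% against 16.6%, an odds ratio of 0.912 that did not pass (Fisher's exact test, adjusted p = 0.604). Without chromosome I the odds ratios for GC content and exon length were 1.92 and 1.53 and both passed.

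**Figure D4:**
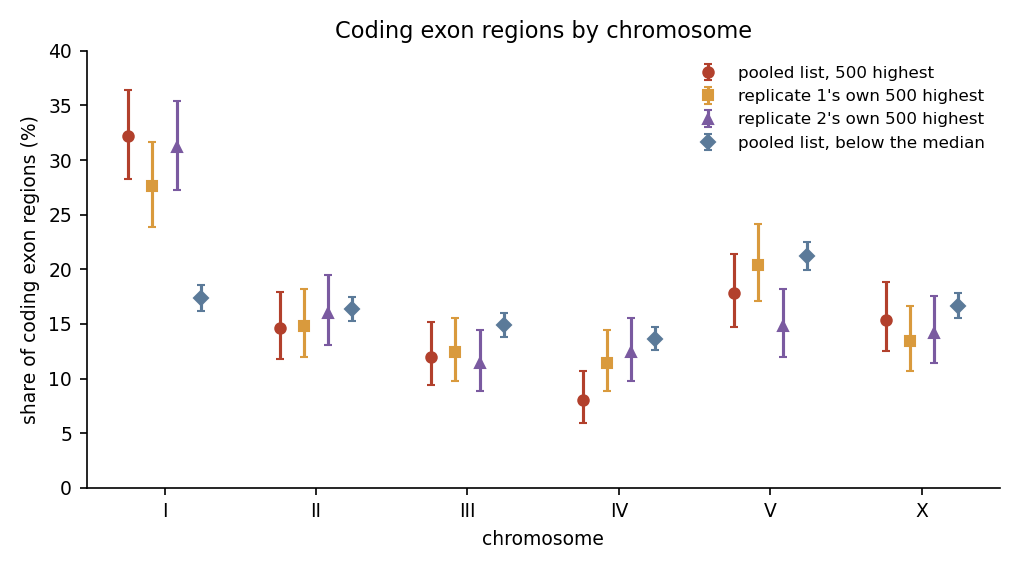
Share of coding exon regions on each chromosome in percent, for the 500 highest of the pooled list and of each replicate's own list and for pooled regions below the list's median. Points are shares and bars 95% Wilson intervals. Chromosome I holds 27.6 to 32.2% of the 500 highest in the 3 lists and 17.4% of the regions below the median.

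The members lay in 6049 of 19973 protein-coding genes, and the 500 highest lay in 467, of which 22 held more than 1. Families were defined by gene symbol, and 25 were counted with no test, since regions within a gene share its sequence. Any of the 25 families held 133 of the 500 highest (26.6%, interval 22.9 to 30.6%) and 21.5% of those below the median. The families below are described by counts beside the share below the median. Over all members the shares were 1.04% for cuticle collagens, 2.46% for muscle filament and cytoskeletal genes and 1.11% for cadherins and giant adhesion receptors. They were 1.42% for C-type lectins, 0.951% for hedgehog-related and patched-related proteins and 3.42% for chemoreceptors. For nuclear hormone receptors the share was 1.25% and for F-box genes 0.882%.

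Cuticle collagens, the structural proteins of the cuticle that hypodermal cells secrete, held 14 of the 500 highest in 14 genes (2.8%, interval 1.68 to 4.64%) against 0.868% below the median (interval 0.625 to 1.20%). The replicates' own 500 highest held 11 and 8. The highest after col-56 was col-165, whose signal value was 38.5 at ranks 335 and 795, the only collagen region in the 1000 highest of both replicates. Genes named for body shape mutants were among the 14. The symbol patterns did not take in all genes so named, and dpy-14, with a value of 37.3, was counted in no family. The dpy-3 region had a value of 28.8 at ranks 924 and 3409, and the rol-6 region 29.02 at ranks 6675 and 12173. The collagen members of the whole list had a median GC content of 53.7%.

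Muscle filament and cytoskeletal genes held 20 of the 500 highest (4%, interval 2.60 to 6.10%) against 2.40% below the median, in 12 genes. The unc-89 gene held 5, more than any other gene, in coding exons 23 to 40 of 48, with signal values from 28.01 to 39.7. Its coding sequence of 24243 bases held 28 members in all, 1.15 per kb. Over all coding bases outside promoter windows members stood at 0.459 per kb, which is not the same measure. The figures for single genes divide by the coding sequence of 1 transcript, promoter windows included. The ttn-1 gene held 3 of the 500 and 25 members over 45564 coding bases, 0.549 per kb. In unc-73, the gene of a Trio-like exchange factor that its symbol placed in this family, 3 regions had values from 29.8 to 36.3. In dhc-1, the gene of a dynein heavy chain, the region had a value of 36.01 at ranks 593 and 539.

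Cadherins and giant adhesion receptors held 15 of the 500 highest (3%, interval 1.83 to 4.89%) in 7 genes, against 0.942% below the median. Of these, lrp-2 and lrp-1, a megalin-like receptor needed for moulting, held 4 each. Both encode LDL receptor family proteins and not cadherins, and were placed in this family by symbol. The lrp-1 regions had signal values from 28.6 to 32.3, and the highest ranked 927 and 944. In cdh-1, a cadherin gene, 3 regions had values from 28.4 to 34.7. Ranks of the highest cdh-1 region were 156 in replicate 1 and 13055 in replicate 2. The own 500 highest of the replicates held 13 and 7 regions of this family. Of the 15 pooled regions, 8 lay on chromosome I, all in lrp-1 and lrp-2, as did 10 of the 20 muscle filament and cytoskeletal regions. For cuticle collagens it was 5 of 14 and for C-type lectins 2 of 15, beside 161 of all 500 (32.2%). The part of chromosome I in the family shares was not tested.

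C-type lectins, carbohydrate-binding proteins, held 15 of the 500 highest (3%, interval 1.83 to 4.89%) in 15 genes against 1.14% below the median, and 11 and 7 in the replicates' own lists. After clec-89 the highest was clec-1, whose signal value was 35.2 at ranks 1356 and 1818. Hedgehog-related and patched-related proteins held 9 (1.8%) against 0.868%, and 9 and 12 in the replicates. The ptr-2 region, in a patched-related gene, had a value of 36.1 and ranks of 6131 and 482.

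Basement membrane and attachment proteins held 7 of the 500 highest (1.4%), against 1.09% below the median and 1.41% of all members. Their share of the 500 highest was thus near that over all members. Each replicate's own 500 highest held 11. In lam-3, the gene of a laminin alpha chain, 2 regions had signal values of 34.2 and 32.3. The emb-9 region had a value of 35.9 and ranks of 629 and 1225. Regions also lay in vab-10, a spectraplakin gene, and unc-52, the perlecan gene, with values from 27.6 to 28.4.

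Chemoreceptor genes, a family of 1309 genes, held a smaller share of the high regions, with 7 of the 500 highest (1.4%, interval 0.680 to 2.86%) against 154 of those below the median (3.82%, interval 3.27 to 4.45%). The replicates' own 500 highest held 15 and 12, so the low share was less marked there. Their members had a median GC content of 36.6%, below that of all members. Nuclear hormone receptors held 2 (0.4%) against 1.36%, with 4 and 6 in the replicates' own 500 highest. F-box genes held 2 (0.4%) against 0.967%, with 1 in each replicate. Ion channels held 2.2% against 2.63% and helicases and chromatin proteins 1.6% against 1.69%, shares that lay within each other's intervals.

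**Figure D5:**
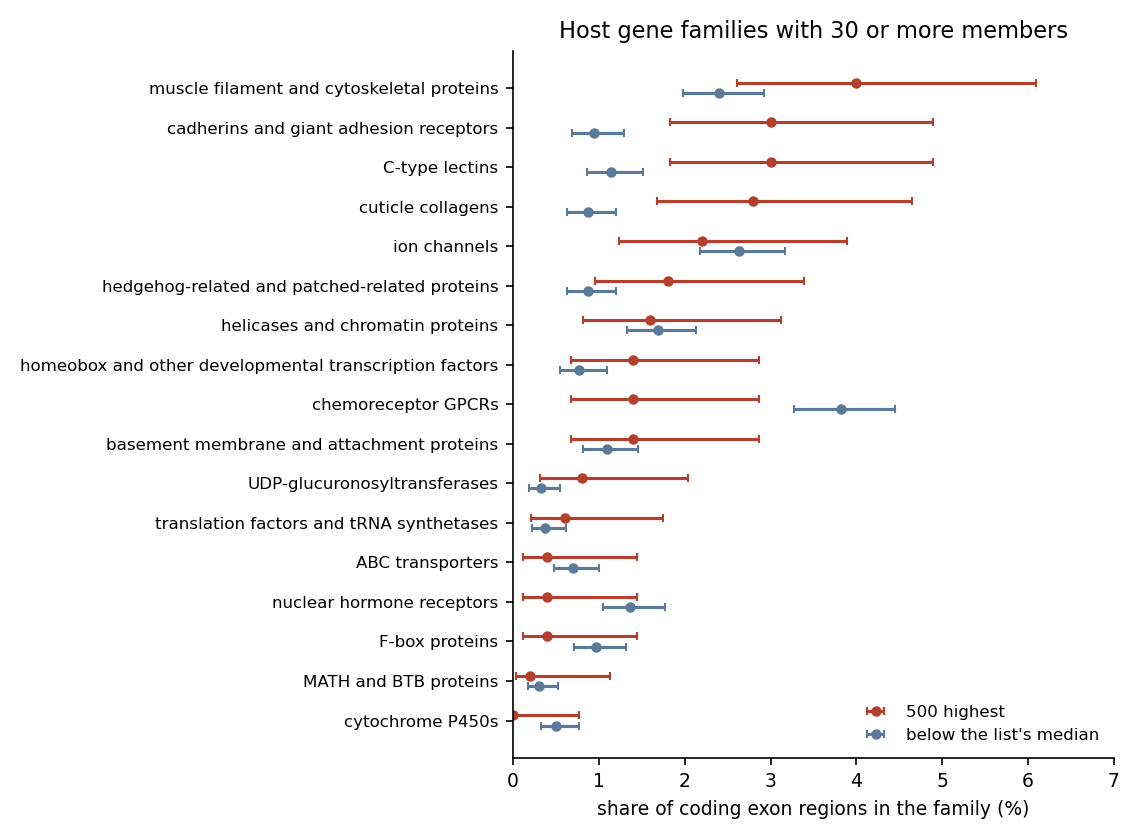
Share of coding exon regions in each gene family in percent, for the 500 highest and for those below the list's median, for families with 30 or more members. Points are shares and bars 95% Wilson intervals. Cuticle collagens, C-type lectins and the family of cadherins and giant adhesion receptors, with lrp-1 and lrp-2, reach 2.8 to 3% of the 500 highest. Chemoreceptors reach 1.4% against 3.82%.

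Sequence shared with other places in the genome was less frequent in the high regions. At least one 31-base word found elsewhere was in 23 of the 500 highest (4.6%, interval 3.08 to 6.81%) and in 8.82% of those below the median, an odds ratio of 0.498 (Fisher's exact test, adjusted p = 0.00158). The replicates' odds ratios were both 0.394 and both passed. The region with the most such words was in skr-10, with 101 of 320 words and a signal value of 27.1. How reads from such copies were placed is not given in the sources used here.

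Repeats inside the region did not pass. A 12-base word occurred 2 or more times on the same strand in 60 of the 500 highest (12%, interval 9.44 to 15.1%) and in 8.95% of those below the median, an odds ratio of 1.39 (Fisher's exact test, adjusted p = 0.0554). Among cuticle collagen members 62 of 91 (68.1%) held such a repeat, as the glycine-rich collagen coding sequence printed for col-165 shows, against 8.91% of other members. Without cuticle collagens the odds ratio was 1.23 (exact test, adjusted p = 0.287), an alternative added after the data had been examined.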

How the data were processed

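What the authors deposited are region lists without reads. Per the labels and the file listing, each list was called against 1 control alignment, and the IDR list goes back to the pooled and the single-replicate lists. The signal value is the authors' deposited score, used only to rank regions within a list. The deposited significance column is −log10 of the q-value, and the p-value column was unset. Not given in the sources used here are the aligner, the program that called peaks and the IDR cutoff. Lists in the ce10 build were not used here.

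Members were found with the Ensembl 115 annotation of WBcel235, whose coordinates match ce11. Differences in shares were tested with Fisher's exact test, two-sided, and Benjamini-Hochberg adjustment over 10 results at a threshold of 0.05. Members, lists and families were chosen with earlier results of these data known, and the symbol patterns of the families were corrected after their values had been seen. The comparison between classes and 8 alternatives were added after the data had been examined. Odds ratios of 2 classes were compared by Zelen's exact test, which replaced a normal approximation that made the same calls. Genes were named by a rule: hosts of the 15 highest members, of IDR members, of the 10 highest in the 1000 highest of both replicates, of the 2 highest in each family and on either side of rank 500, and the 8 genes with most members. Other genes named, such as aco-2, copa-1, dhc-1, dpy-3, rol-6, lam-3, vab-10, unc-52 and skr-10, were chosen after their values were seen. The tests and the count of repeated words were tested on simulated data. Computations used Python 3.11.15, numpy 2.4.6, pandas 2.3.3, scipy 1.17.1, statsmodels 0.14.6 and matplotlib 3.10.9.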

Additional observations from a re-analysis of the deposited data

How the results depend on the processing

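Of 127 alternatives over 11 values, 106 kept direction and side of the threshold, 9 newly passed, 4 no longer passed, 2 moved and 6 turned direction, none of these 6 past the threshold. The odds ratio of the first coding exon turned to 0.689 for the 250 highest members, 0.923 with the window from 500 to 100 bp, 0.895 without replicate 2 and 0.756 for the highest member of each gene, with a range of 0.895 to 1.19 over the replicates left out. That of chromosome X turned to 1.19 without chromosome I and 1.09 for the highest member of each gene. The GC content and region inside 1 exon results kept direction and call in every alternative tried. The odds ratio of the coding share fell to 1.14 for the 500 highest regions and to 1.16 with the window from 2000 to 500 bp. That of exon length fell to 1.17 at or below the median GC content. That of copies elsewhere was 0.321 and did not pass when 100 or more words were required. The GATA odds ratio passed at 0.791 for the 1000 highest members, at 0.737 with A or T before GATA and A or G after it and at 0.727 over the whole region. Within 50 bp of the summit it was 0.906 and did not pass. Repeats passed at 1.39 with the window from 500 to 100 bp and at 1.44 without chromosome I. Replicate agreement was 4% within 50 bp and 8.8% for the 1000 highest. With each replicate left out in turn, the odds ratio ranged from 0.739 to 0.872 for the GATA site, from 1.08 to 1.42 for repeats, from 0.715 to 0.869 for the last coding exon and from 0.725 to 0.776 for chromosome X. In each of these 4, 1 of the 2 lists passed, replicate 2's for the GATA site and the last coding exon and replicate 1's for repeats and chromosome X. The cause of these changes was not tested. Counting any summit within 150 bp instead of the nearest, 21 members and 68 pooled regions were in the 1000 highest of both replicates. No paired analysis was possible because there is 1 group. With no read totals, the precision of each signal value is unknown.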
